A study of Mus musculus with 16 samples.

Results

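The genes described here are 10 members of the Wnt pathway in mouse adipose tissue: the secreted inhibitors Sfrp1, Sfrp2, Sfrp4, Sfrp5, Dkk2, Dkk3 and Wif1, the ligand Wnt5a, the feedback gene Axin2 and the transcription factor Tcf7l2. They were chosen by name, with earlier results of these data known, as every entry of the deposited table whose RefSeq identifier belongs to one of these symbols. This gave 74 transcript entries for 10 of 35569 gene symbols. Bulk RNA was sequenced from inguinal subcutaneous adipose tissue (SAT, left and right pads combined for each mouse) and mesenteric visceral adipose tissue (VAT), with visible vessels dissected away. All mice were WT C57BL/6J males that were put on their diets at 10 weeks of age and stayed on them for 12 to 14 months. Lean mice ate a normal laboratory diet, and obese mice ate a high-fat diet with 42% of its energy from fat and 0.2% cholesterol. There were 4 mice per diet, and each gave 1 SAT and 1 VAT library, so that 16 poly(A) libraries formed 4 groups of 4.

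Wnt proteins are secreted ligands that bind Frizzled receptors, together with the co-receptors Lrp5 and Lrp6 in the canonical branch, in which beta-catenin then reaches the nucleus and acts with Tcf and Lef factors. Secreted frizzled-related proteins (the Sfrp family) and Wif1 bind the ligands outside the cell, and Dickkopf proteins such as Dkk2 bind the co-receptors. In adipose tissue, canonical Wnt signaling is known to hold back the formation of adipocytes, Wnt5a is a ligand of the non-canonical branch linked with inflammation, and Sfrp5 is an adipokine made by adipocytes.

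Total counts ranged from 1256082 in VAT of lean mouse 1 to 16614407 in SAT of obese mouse 3, and VAT of obese mouse 1 was the next shallowest library (2247737). Of the 10 genes, 6 passed a filter of a CPM (a count scaled to the total of its library, the usual RNA-seq unit) above 1 in at least 3 of the 16 libraries: Sfrp2, Sfrp4, Sfrp5, Wif1, Wnt5a and Axin2. Counts were summed over the transcripts of a gene, and levels below are CPM scaled by TMM factors, given in the order of mice 1 to 4. Each comparison was tested with edgeR over all 12185 features that passed the filter, and a gene is called upregulated or downregulated where its adjusted p (Benjamini-Hochberg) is below 0.05. The gene Scd1 took 23.7% to 25.7% of all counts in SAT of obese mice but 3.28% to 14.0% in SAT of lean mice, 5.04% to 9.2% in VAT of lean mice and 12.5% to 18.5% in VAT of obese mice. The tissue labels were checked against markers: all 10 adipocyte markers were detected, with summed levels of 71527 to 106265 CPM in SAT and 33609 to 61670 CPM in VAT. The 11 mesothelial markers summed to at most 2.11 CPM in SAT and to between 273 and 666 CPM in VAT.

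Sfrp5 and Wif1 were the members called in most of the comparisons below, and their upstream sequences are shown for that reason. Sfrp5 lies at chr19:42186410-42190691 on the minus strand and Wif1 at chr10:120869865-120936555 on the plus strand (GRCm39, GENCODE). The sequences are from the RefSeq promoter table, whose build is GRCm38.p6, matched letter for letter to GRCm39, and are read 5′ to 3′ up to the base before the annotated gene. Capitals mark CG dinucleotides, the letters that can carry DNA methylation. The Sfrp5 stretch is chr19:42190692-42190941 (250 bases, 13 CG) and the Wif1 stretch is chr10:120869659-120869864 (206 bases, 17 CG).
Sfrp5: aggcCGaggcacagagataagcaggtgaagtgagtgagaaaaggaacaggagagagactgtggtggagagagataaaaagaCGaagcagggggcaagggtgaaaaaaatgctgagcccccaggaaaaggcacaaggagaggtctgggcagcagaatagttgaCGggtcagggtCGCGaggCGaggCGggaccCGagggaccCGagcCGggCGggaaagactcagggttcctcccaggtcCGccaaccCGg
Wif1: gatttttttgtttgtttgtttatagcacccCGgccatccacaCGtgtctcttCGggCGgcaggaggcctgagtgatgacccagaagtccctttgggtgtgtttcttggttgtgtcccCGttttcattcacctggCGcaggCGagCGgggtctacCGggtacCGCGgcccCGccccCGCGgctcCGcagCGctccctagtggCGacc
The median promoter of the table held 6 CG in 250 bases and the median promoter of a tested gene held 13, against 13 for Sfrp5 and 21 for the full Wif1 window of 250 bases. The Tcf and Lef motif searched on both strands was CTTTG followed by 2 letters that are each A or T. It was absent from the windows of Sfrp5, Wif1, Sfrp2, Dkk2 and Axin2. The Dkk2 window lay wholly inside the annotated gene, as did 147, 44 and 6 of the 250 bases of the Sfrp2, Wif1 and Axin2 windows. The motif was present in 14.8% of all 32851 promoters in the table and in 11.2% of those of tested genes. Tcf7l2 had 2 windows. The one at the start of the annotated gene held none, and the other, before a start inside the gene (chr19:55883503-55883752), held 1 match, CTTTGTT, 14 bases before that start. Sfrp1, Sfrp4, Dkk3 and Wnt5a were not looked at in this way.

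**Figure D1:**
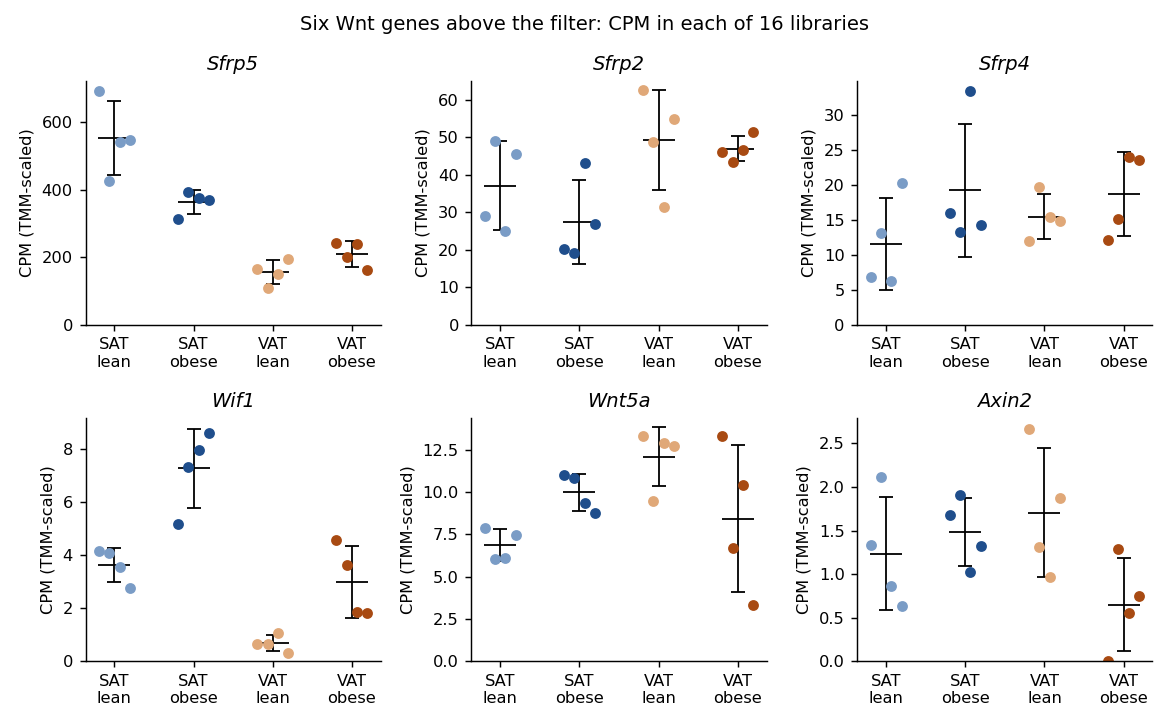
TMM-scaled CPM (linear y axes starting at 0) of the 6 genes above the filter, 1 panel per gene, with 1 point per library, a line at the mean and bars of 1 SD (n = 4) for each tissue and diet. Sfrp5 and Wif1 were higher in every SAT library of a diet than in any VAT library of that diet, and Wif1 was higher in all 4 obese libraries than in all 4 lean libraries in both tissues.

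Sfrp5, an inhibitor that binds Wnt ligands, was downregulated in SAT of obese mice and was lower in VAT than in SAT of both diets. In SAT of lean mice its level was 692, 426, 541 and 548 CPM, and in SAT of obese mice it was 313, 394, 376 and 370 CPM. Every lean library stood above every obese library. The means were 552 ± 109 CPM and 363 ± 34.8 CPM (SD, n = 4 each), a log2 fold change (logFC) of -0.60 (SE 0.164, 95% interval -0.92 to -0.28, adjusted p = 0.0188, edgeR). The call was lost without the libraries of lean mouse 1 (logFC -0.47, adjusted p = 0.0716) and without those of obese mouse 1 (logFC -0.55, adjusted p = 0.0528).

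In VAT the Sfrp5 estimate pointed the other way. VAT of lean mice held 164, 110, 151 and 195 CPM, and VAT of obese mice held 243, 199, 239 and 161 CPM. The ranges overlapped, since obese mouse 4 lay below lean mice 1 and 4, and the logFC of 0.44 (SE 0.167, adjusted p = 0.0909) did not pass. Without the libraries of lean mouse 4 or obese mouse 4 it passed, with a logFC of 0.61 (adjusted p = 0.0308) and 0.58 (adjusted p = 0.0473), respectively. The diet responses of the tissues were compared directly, with each mouse as a block, and the VAT response exceeded the SAT response by 1.03 on the log2 scale (SE 0.176, 95% interval 0.69 to 1.38, adjusted p = 0.0024). This difference was called under all 15 alternatives, between 0.82 and 1.19.

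VAT of lean mice had 3.57-fold less Sfrp5 than SAT of the same mice (logFC -1.84, SE 0.128, adjusted p = 1.90e-09), and VAT of obese mice had 1.75-fold less (logFC -0.80, SE 0.125, adjusted p = 4.71e-05). Sfrp5 was lower in VAT in 4 of 4 lean mice and in 4 of 4 obese mice. The order of the group means was SAT lean, SAT obese, VAT obese and VAT lean, and the libraries of the last 2 groups overlapped.

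Wif1, which also binds Wnt ligands, was upregulated with obesity in both tissues and was lower in VAT than in SAT. VAT of lean mice held 0.666, 0.655, 1.08 and 0.329 CPM, from 1, 11, 10 and 3 counts, and VAT of obese mice held 4.57, 3.63, 1.87 and 1.83 CPM, from 12, 45, 20 and 22 counts. All obese libraries stood above all lean libraries. The increase in VAT was 3.95-fold (logFC 1.98, SE 0.389, 95% interval 1.22 to 2.74, adjusted p = 0.00164, edgeR). It was the largest diet response among the 6 genes tested and was called under all 18 alternatives, with logFC values from 1.75 to 2.34.

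SAT of lean mice held 4.15, 4.08, 3.54 and 2.77 CPM of Wif1, and SAT of obese mice held 5.18, 7.32, 7.94 and 8.6 CPM. Again no obese library overlapped a lean one. The increase was 1.96-fold (logFC 0.97, SE 0.28, 95% interval 0.43 to 1.52, adjusted p = 0.0263), and it held in all 18 alternatives except 6 of the 8 that left out 1 mouse, which gave adjusted p values between 0.0527 and 0.0692 with logFC values from 0.87 to 1.01. Those 6 were the ones without lean mouse 2, 3 or 4 or obese mouse 2, 3 or 4. The VAT response was larger than the SAT response by 0.92 on the log2 scale, with a 95% interval of -0.11 to 1.95 that includes no difference (adjusted p = 0.439). Wif1 in VAT was 5.16-fold lower than in SAT in lean mice (logFC -2.37, SE 0.416, adjusted p = 3.58e-04) and 2.74-fold lower in obese mice (logFC -1.45, SE 0.309, adjusted p = 0.00112), and it was lower in VAT in all 8 mice.

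Sfrp2 (chr3:83673481-83681623), another Wnt-binding inhibitor, which is made by adipose fibroblasts and progenitors, differed between the tissues of obese mice and did not pass the test for diet. SAT of obese mice held 20.2, 19, 43.2 and 26.9 CPM, and VAT of obese mice held 46.1, 43.4, 46.7 and 51.5 CPM. All 4 VAT libraries stood above all 4 SAT libraries, although obese mouse 3 had nearly the same level in both, and the logFC of VAT against SAT was 0.84 (SE 0.179, 95% interval 0.49 to 1.19, adjusted p = 0.00115). In lean mice SAT ranged from 24.9 to 48.9 CPM and VAT from 31.3 to 62.6 CPM, with a logFC of 0.40 (SE 0.18, adjusted p = 0.149). The contrast of tissues in obese mice was not shown to differ from that in lean mice, since the difference was 0.44 (95% interval -0.06 to 0.94, adjusted p = 0.44). The diet logFC was -0.42 in SAT (SE 0.245, adjusted p = 0.294) and -0.04 in VAT (95% interval -0.53 to 0.44, adjusted p = 0.948). The 12 markers of adipose progenitors and fibroblasts summed to between 4154 and 7840 CPM in the 16 libraries, a sum led by Col3a1. Of the 10 of them that were tested, 3 were higher and 2 lower in VAT than in SAT of obese mice, where 16.3% and 15.1% of all features were, among them Dcn (logFC 1.00, adjusted p = 2.17e-07) and Dpp4 (logFC 0.66, adjusted p = 0.00278) as higher and Pi16 (logFC -0.98, adjusted p = 5.74e-04) as lower, the last 3 named after their values were seen. Their part in the Sfrp2 values was not tested.

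Sfrp4 (chr13:19807274-19817164), a related inhibitor that is also secreted, passed in none of the 5 comparisons. SAT of lean mice held 6.81, 13.2, 6.21 and 20.3 CPM, and SAT of obese mice held 16, 13.3, 33.5 and 14.3 CPM. Lean mouse 4 lay above 3 of the obese libraries and obese mouse 3 lay far above the others. The logFC was 0.80 (SE 0.333, adjusted p = 0.129), and it passed with no filter on low counts (0.85, adjusted p = 0.00154), with limma voom (0.96, adjusted p = 0.0475) and without lean mouse 4 (1.16, adjusted p = 0.0337). In VAT the lean libraries ranged from 12.0 to 19.7 CPM and the obese libraries from 12.2 to 24.1 CPM, with a logFC of 0.26 (95% interval -0.39 to 0.91, adjusted p = 0.692). VAT against SAT gave a logFC of 0.53 in lean mice (SE 0.25, adjusted p = 0.17) and of 0.03 in obese mice (SE 0.229, adjusted p = 0.931). Without lean mouse 4 the former was 0.89 (adjusted p = 0.021).

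Wnt5a (chr14:28226495-28249405), the ligand of the set, was higher in VAT than in SAT of lean mice. SAT of lean mice held 7.89, 6.04, 6.12 and 7.46 CPM, and VAT of lean mice held 13.3, 9.47, 12.9 and 12.7 CPM. The groups did not overlap, and the logFC was 0.82 (SE 0.243, adjusted p = 0.0239). The call was lost without the mouse as a block (0.79, adjusted p = 0.0612) and without lean mouse 2, 3 or 4 (0.87, 0.71 and 0.82, adjusted p = 0.0562, 0.138 and 0.0587). In obese mice the tissues did not separate: SAT held 11, 10.8, 9.37 and 8.75 CPM and VAT held 13.3, 6.69, 10.4 and 3.32 CPM, so 1 VAT library lay above and 2 below all SAT libraries, and the logFC was -0.41 (SE 0.233, adjusted p = 0.201).

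The diet estimates of Wnt5a had opposite signs in the tissues, and neither passed. In SAT every obese library stood above every lean library, with a logFC of 0.54 (SE 0.269, adjusted p = 0.215), and in VAT the logFC was -0.60 (SE 0.279, adjusted p = 0.184). The difference between these responses was -1.23 (SE 0.337, 95% interval -1.89 to -0.57) with an adjusted p of 0.0571, just above the threshold. It passed under 6 of 15 alternatives, among them no filter on low counts (-1.29, adjusted p = 0.0104), DESeq2 (-1.21, adjusted p = 0.0219) and the fit without the shallow VAT libraries of lean mouse 1 and obese mouse 1 (-1.44, adjusted p = 0.0393). One of the 5 transcript entries of Wnt5a held 92.6% of its counts.

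Axin2 (chr11:108811169-108841609), a component of the complex that degrades beta-catenin and a common target of canonical Wnt signaling, was measured from 198 counts in all and passed in no comparison. SAT of lean mice held 1.33, 2.11, 0.86 and 0.639 CPM, and SAT of obese mice held 1.68, 1.91, 1.03 and 1.32 CPM. VAT of lean mice held 2.66, 1.31, 0.969 and 1.87 CPM, from 4, 22, 9 and 17 counts, and VAT of obese mice held 0.0, 1.29, 0.56 and 0.747 CPM, from 0, 16, 6 and 9 counts. All groups overlapped. The logFC was 0.23 in SAT (95% interval -0.64 to 1.09, adjusted p = 0.805) and -0.93 in VAT (95% interval -1.88 to 0.03, adjusted p = 0.252), so that no difference was detectable at this depth. VAT against SAT gave 0.33 in lean mice (adjusted p = 0.737) and -0.99 in obese mice (adjusted p = 0.138), with lower Axin2 in VAT of 4 of 4 obese mice.

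**Figure D2:**
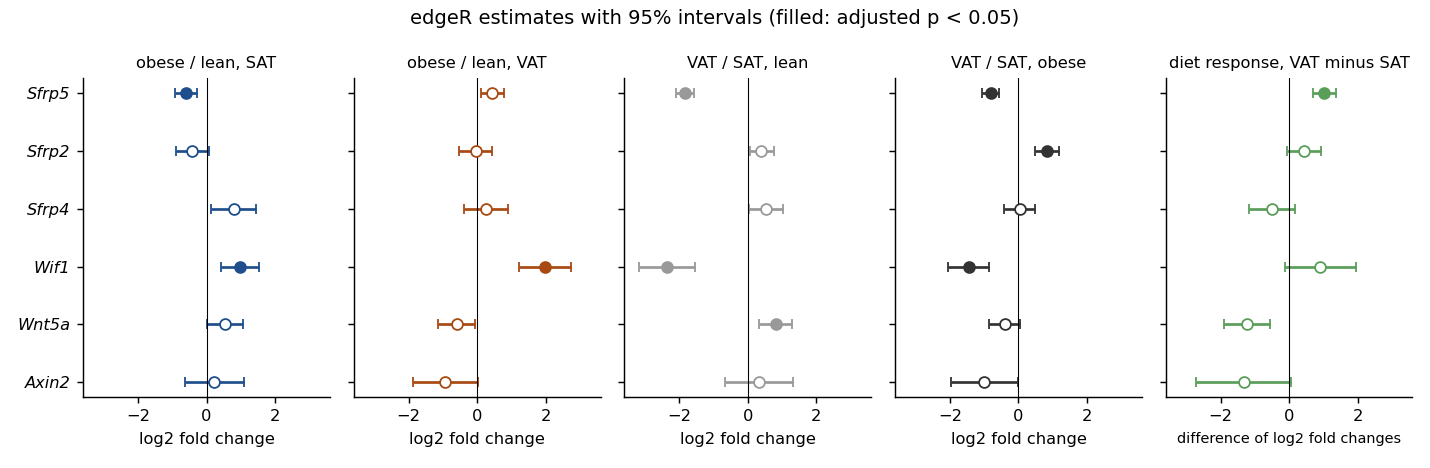
Log2 fold changes (x axes) of the 6 genes above the filter in the 5 comparisons, 1 panel each, with 95% intervals (1.96 standard errors each way) and filled points for an adjusted p below 0.05. Sfrp5 lies below 0 in SAT and above 0 in VAT, Wif1 lies above 0 in both, and both lie below 0 in the comparisons of VAT with SAT.

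The calls are set here against those over all features, as a description, since the members were chosen with earlier results of these data known. In SAT, 1 of the 6 tested genes was upregulated with obesity (Wif1) and 1 downregulated (Sfrp5), where 6.35% and 5.25% of all features were. In VAT 1 was upregulated (Wif1) and 0 downregulated, against 6.89% and 5.28% of all features. In lean mice 1 gene was higher in VAT (Wnt5a) and 2 were lower (Sfrp5 and Wif1), against 8.67% and 7.22%, and in obese mice 1 was higher (Sfrp2) and 2 were lower (Sfrp5 and Wif1), against 16.3% and 15.1%. For the difference of the diet response 1 gene was higher in VAT (Sfrp5) and 0 were lower, against 0.854% and 1.62%. With the logFC limit of 1.5 that the study used, only Wif1 in VAT and, between tissues of lean mice, Sfrp5 and Wif1 would be called. The comparisons share libraries (the lean SAT libraries enter both the SAT diet response and the comparison of tissues in lean mice), so their values are not independent. In bulk tissue a lower level cannot be told apart from fewer cells of the type that makes a transcript.

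Sfrp1, Dkk2, Dkk3 and Tcf7l2 had few or no counts, did not pass the filter and were not tested. Sfrp1 (chr8:23901263-23939648), an inhibitor of the Sfrp family, had 17 counts in all. In VAT of obese mice it had 3, 2, 2 and 3 counts, at least 2 in every library, and in the other 12 libraries it had 7 counts together. Dkk2 (chr3:131790336-131886065), a Dickkopf protein, had 6 counts, of which 0 were in VAT of lean mice. Dkk3 (chr7:111712904-111758760), a divergent member of that family, had 0 counts over its 4 transcript entries. For reads that were counted, this allows at most 0.0184 CPM over the 163373380 counts of the 16 libraries (3 counts, covering counting error only). Tcf7l2 (chr19:55730188-55922091), a factor through which beta-catenin acts, had 29 counts, all on 1 of its 51 transcript entries.

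For genes with many transcripts, a low count is not taken here as low expression. Whether reads that fit several transcripts of a gene were counted or dropped is not stated. Of 38 Wnt pathway genes with 1 transcript entry, 71.1% passed the filter, and of 84 with more than 1 entry 28.6% passed. Among all protein-coding genes 44.0% with 1 entry and 38.6% with more than 1 passed, the latter made up of 43.3% of those with 2 to 4 entries and 32.3% of those with 5 or more. Sfrp2, Sfrp4, Sfrp5 and Wif1 have 1 entry each, whereas Sfrp1 and Dkk2 have 2, Dkk3 has 4, Wnt5a has 5 and Axin2 has 6. Noncoding RNA genes on the opposite strand overlap Sfrp2, Dkk2, Wnt5a, Axin2 and Tcf7l2, and 1 on the same strand overlaps Tcf7l2. The libraries were directional, but the strand setting of the counting is not stated, and no other annotated gene overlaps Sfrp1, Sfrp4, Sfrp5, Dkk3 or Wif1.

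**Figure D3:**
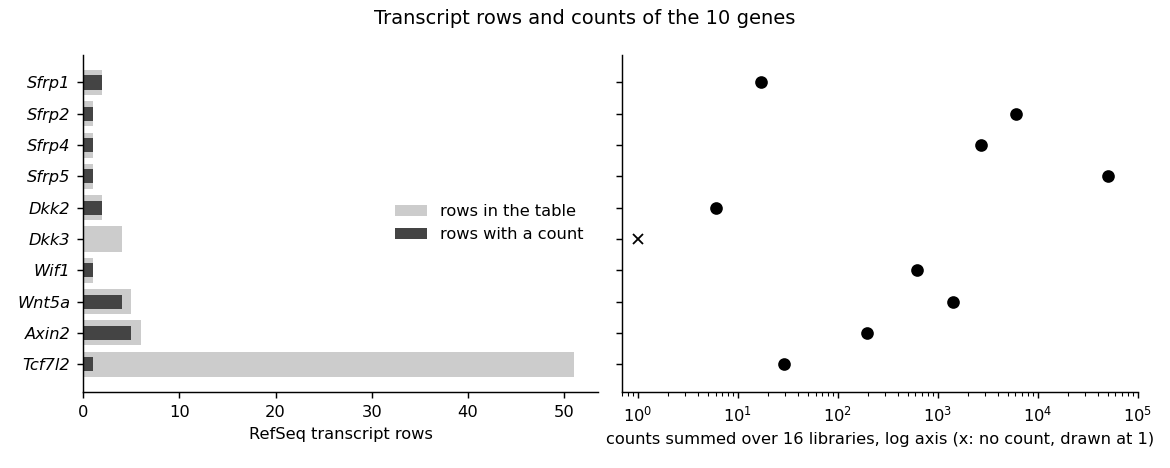
Left, number of RefSeq transcript entries of each of the 10 genes (grey bars) and of those with at least 1 count (dark bars). Right, counts summed over 16 libraries (log x axis, with a cross drawn at 1 for Dkk3, which had none): Sfrp5 had 50582 counts from 1 entry and Tcf7l2 had 29 from 51 entries.

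Markers of other cells moved with diet beside these results. The 10 macrophage markers summed to between 1417 and 2032 CPM in SAT of lean mice and between 2286 and 3206 CPM in SAT of obese mice, and to between 2486 and 3223 CPM in VAT of lean mice and between 5402 and 7635 CPM in VAT of obese mice. The adipocyte markers summed to between 44102 and 61670 CPM in VAT of lean mice and between 33609 and 43784 CPM in VAT of obese mice, and 4 of the 10 were downregulated there, against 5.28% of all features. In SAT they summed to between 85808 and 106265 CPM in lean mice and between 71527 and 88560 CPM in obese mice, and 1 of the 10 was downregulated (Lpl, a lipase of fat uptake), against 5.25% of all features. Markers of B and T cells summed to between 7.03 and 14.6 CPM in SAT, between 38.9 and 245 CPM in VAT of lean mice and between 201 and 357 CPM in VAT of obese mice. The 9 markers of intestinal epithelium summed to between 19.1 and 72.4 CPM in VAT of lean mice and between 18.8 and 26.3 CPM in VAT of obese mice. Of the 7 tested, 3 were downregulated there, against 5.28% of all features. Zg16 among these markers, named after its values were seen, was at 1.33, 5.36, 0.323 and 4.39 CPM in VAT of lean mice, highest in mice 2 and 4, and at most 0.28 CPM in VAT of obese mice. Schwann cell markers, led by Mbp, summed to 111 to 157 CPM in lean and 167 to 193 CPM in obese SAT. In VAT they summed to 132 to 153 and 174 to 197 CPM. The exocrine pancreas list, led by Cela1, summed to 71.2 to 144 and 162 to 209 CPM in SAT. In VAT it summed to 41.5 to 60.7 and 81.6 to 89.6 CPM. Skeletal muscle markers summed to 4.05 to 9.31 CPM in lean and 2.01 to 2.54 CPM in obese SAT. The part of these shifts in the values of Sfrp5 and Wif1 was not tested.

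Sfrp5 and Wif1 were also expressed relative to the adipocyte markers. The measure was chosen after their values were seen, so exact permutation tests that were run on 8 such ratios are not used, and the values are a description. The sum of the 10 adipocyte markers was made up mostly of Lpl, Fabp4, Lep and Adipoq. Their means were 46838, 28965, 14130 and 5800 CPM in SAT of lean mice and 26308, 18326, 3754 and 6171 CPM in VAT of lean mice. Per 1000 CPM of the 10 adipocyte markers, Sfrp5 was 2.85 ± 0.784 CPM in VAT of lean mice and 5.47 ± 1.26 CPM in VAT of obese mice (SD, n = 4), 1.92 times as high, and the lowest obese library, at 4.41 CPM, lay above the highest lean library, at 3.73 CPM. In SAT the same ratio was 5.7 ± 0.98 CPM in lean mice and 4.63 ± 0.42 CPM in obese mice, and the groups overlapped. Relative to Adipoq (adiponectin, a hormone of adipocytes) alone, Sfrp5 was 0.75 times its lean level in SAT (80.9 to 131 CPM per 1000 CPM in lean mice and 63.6 to 80 in obese mice) and 2.17 times in VAT (17.1 to 33.3 and 39.9 to 90.3), with no overlap in either tissue. Wif1 per 1000 CPM of the markers was 0.038 CPM in lean and 0.0917 CPM in obese SAT, and 0.0125 CPM in lean and 0.0788 CPM in obese VAT. Between tissues of obese mice, Sfrp5 per 1000 CPM of the 10 markers was 5.47 CPM in VAT against 4.63 CPM in SAT, with overlapping libraries, whereas in lean mice it was 2.85 CPM against 5.7 CPM. Relative to Adipoq alone, Sfrp5 in obese mice had a lower mean in VAT (56 CPM per 1000 CPM) than in SAT (72), and these libraries overlapped too. Of the 10 adipocyte markers 3 were lower in VAT than in SAT of lean mice and 7 in obese mice, against 7.22% and 15.1% of all features, and their part in the lower CPM of Sfrp5 and Wif1 in VAT was not tested.

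Over the 16 libraries the levels of the 6 genes were related to each other to different degrees, which is given here as a description, since the libraries share groups, mice and scaling. Sfrp5 and Wif1 were the pair with the highest correlation (Pearson r = 0.68 on log2 CPM, 16 libraries). Sfrp2 ran against Wif1 (r = -0.60) and against Sfrp5 (r = -0.49), and Axin2 was close to unrelated to Wnt5a (r = -0.01). Among 10709 other genes the pattern most like that of Sfrp5 was that of Marveld1 (r = 0.94), followed by Lep, the gene of the adipocyte hormone leptin (r = 0.939), and Syp (r = 0.933). Marveld1 lies 46.3 kb from Sfrp5 on chromosome 19. The genes most like Wif1 were Wnt8b (r = 0.93), a Wnt ligand, Tfr2 (r = 0.921) and Spaar (r = 0.92). Those most like Sfrp2 were A630026N12Rik, Gm52149 and Gm12185 (r = 0.876, 0.873 and 0.865), those most like Sfrp4 were Aldh1a3, Eda2r and F13a1 (r = 0.818, 0.802 and 0.79), and those most like Wnt5a were Pcx, Exoc8 and Ccnd2 (r = 0.898, 0.815 and 0.809). Axin2, with its few counts, was most like Gm45916, Cd274 and Gm52313 (r = 0.933, 0.917 and 0.911).

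The pathway around these genes was described by a list of 112 other Wnt genes, of which 45 passed the filter. In SAT 4 were upregulated and 1 downregulated with obesity (median logFC 0.11), where 6.35% and 5.25% of all features were, and in VAT 2 were upregulated and 5 downregulated (median -0.20), against 6.89% and 5.28%. Between tissues, 7 were higher and 5 lower in VAT of lean mice, against 8.67% and 7.22% of all features, and 9 were higher and 18 lower in VAT of obese mice, against 16.3% and 15.1%. These counts include genes that passed the filter through 1 tissue alone, among them Wnt4 and Rspo1 as higher and Wnt2 as lower. The counts between tissues are for that reason not read against the shares. For the difference of the diet response 1 was higher in VAT and 3 were lower (median -0.34), against 0.854% and 1.62%. The medians over all features tested lay between -0.02 and 0.02 in the 5 comparisons.

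Among extracellular inhibitors outside the 10 genes, Apcdd1, a membrane-bound inhibitor of Wnt signaling that is also on the list of feedback and target genes, was downregulated in both tissues. In SAT it went from 32.5, 31.3, 35.4 and 30.1 CPM to 21.2, 20.4, 15.8 and 16.9 CPM (logFC -0.80, SE 0.241, adjusted p = 0.0327), and in VAT from 45.3, 22.0, 25.1 and 22.7 CPM to 9.9, 13.1, 14.0 and 4.73 CPM (logFC -1.38, SE 0.261, adjusted p = 0.00126). No obese library overlapped a lean one in either tissue. In SAT the call was lost without lean mouse 2 or 3 or obese mouse 2 or 3. Apcdd1 was also lower in VAT than in SAT of obese mice (logFC -0.89, adjusted p = 0.00412), a call that was lost without obese mouse 4. In VAT of obese mice Frzb, a further Sfrp family member, held 0.0, 2.42, 0.56 and 6.39 CPM, against at most 0.342 CPM in SAT of these mice (adjusted p = 0.0027), and this call was also lost without obese mouse 4. Sostdc1, an inhibitor that binds Lrp6, held 9.14, 1.61, 4.38 and 2.41 CPM there, against 0.305 to 0.411 CPM in their SAT (adjusted p = 1.53e-05).

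Of 19 Wnt ligands 5 were tested, and of these 3 were higher and 2 lower in VAT than in SAT of lean mice (8.67% and 7.22% of all features), and 2 were higher and 2 lower in obese mice (16.3% and 15.1% of all features). Wnt2b was 5.24 ± 2.31 CPM in SAT and 111 ± 42.6 CPM in VAT of lean mice (logFC 4.30, SE 0.207, adjusted p = 6.15e-12), and 4.64 ± 0.718 CPM and 78.4 ± 22.8 CPM in obese mice (logFC 4.04, SE 0.199, adjusted p = 6.27e-12). Wnt4 had 4 counts over the 8 SAT libraries and 5.6 to 12.8 CPM in VAT of lean mice and 3.05 to 8.31 CPM in VAT of obese mice. The other lower ligand beside Wnt8b was Wnt2, named after its values were seen, with 20 and 66 counts in SAT of lean and obese mice and 2 and 1 counts in VAT. Wnt2 passed the filter through SAT of obese mice alone, and Wnt4 and Rspo1 through VAT alone. Their calls between tissues, and the counts of called ligands that include Wnt2 and Wnt4, are for that reason not read further. Rspo1, an R-spondin, which is a secreted amplifier of Wnt signaling, had 3 counts over the 8 SAT libraries and 3.98 to 17.9 CPM in VAT. Rspo3, of the same family, was 6.89-fold higher in VAT of lean mice and 5.46-fold higher in VAT of obese mice (adjusted p = 4.84e-06 and 1.97e-06). The mesothelial markers moved with these 4 genes, with at most 2.11 CPM in SAT and at least 273 CPM in VAT in sum, Msln at 0 in all 8 SAT libraries and Upk3b at most 0.287 CPM there against at least 168 CPM in VAT. Their part in the result was not tested.

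Wnt8b, the ligand with the pattern nearest to Wif1, was upregulated with obesity in both tissues. In SAT it went from 3.57, 0.984, 1.15 and 1.71 CPM to 8.15, 9.97, 6.5 and 6.51 CPM (logFC 1.99, SE 0.387, adjusted p = 0.00162), and in VAT from 0, 4, 1 and 1 counts to 10, 33, 8 and 14 counts (logFC 3.40, SE 0.664, adjusted p = 0.00158). Its levels did not overlap between diets in either tissue, and it was lower in VAT than in SAT in both diets (logFC -3.01 and -2.14, adjusted p = 0.00102 and 3.49e-05). On chromosome 19 Wnt8b lies 82.8 kb from Scd1, whose share of the counts moved with diet as given above. Scd1 is on the minus strand and Wnt8b on the plus strand, so that they are transcribed away from each other. The part of that neighbour in the counts of Wnt8b was not tested.

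Among receptors, transducers and targets, the co-receptor gene Lrp6 was upregulated in SAT, from 12.8, 25.3, 22.7 and 14.3 CPM to 33.4, 32.9, 42.4 and 42.5 CPM (logFC 1.01, SE 0.217, adjusted p = 0.00406). In VAT it held 20.0 to 34.6 CPM in lean mice and 16.7 to 31.6 CPM in obese mice, and its diet response was lower in VAT than in SAT by a logFC of -1.32 (SE 0.288, adjusted p = 0.0162), which was lost without obese mouse 3 or 4. Also upregulated in SAT were Tnks, a tankyrase that targets axins for removal (logFC 0.39, adjusted p = 0.0312), and Nkd1, a feedback antagonist of the pathway (logFC 1.21, adjusted p = 0.0337), and both calls were lost under several alternatives, among them those without lean mouse 2 or without obese mouse 1. The difference of the diet response was negative for Tnks (-0.60, adjusted p = 0.0417) and Gsk3b, the kinase that marks beta-catenin for degradation (-2.80, adjusted p = 0.0293, from at most 36 counts in a library), and these were called under 6 and 7 of 15 alternatives.

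In VAT, Amer1, a scaffold of the degradation complex, was downregulated (logFC -0.82, adjusted p = 0.00117), as were the receptor Fzd3 (-0.69, adjusted p = 0.012) and Pygo1, a co-activator of beta-catenin (-0.59, adjusted p = 0.0362). Amer1 was called under all 18 alternatives, Fzd3 under 15 and Pygo1 under 10. Ccn5, a matricellular protein first described as Wnt-induced, was upregulated in VAT from 6.66, 6.79, 7.75 and 10.2 CPM to 11.4, 35.3, 32.7 and 28.9 CPM (logFC 1.81, SE 0.332, adjusted p = 9.29e-04), and its response was higher in VAT than in SAT by 1.25 (adjusted p = 0.0164), a call lost without lean mouse 2 or obese mouse 2 or without the mouse as a block. Between tissues, Ccn5 was lower in VAT than in SAT of lean mice (logFC -2.03, adjusted p = 3.53e-07) and of obese mice (logFC -0.78, adjusted p = 0.00254), the latter lost without obese mouse 3 or without the mouse as a block. Amer1 was lower in VAT in both diets (logFC -0.41 and -0.92, adjusted p = 0.0193 and 5.58e-06), the former lost under 5 of 15 alternatives, among them without lean mouse 1 or 3, and Tnks was lower in VAT of obese mice (logFC -0.75, adjusted p = 2.17e-05). Twist1, a transcription factor linked with Wnt signaling, was 69.2 ± 10.5 CPM in SAT and 9.65 ± 2.89 CPM in VAT of lean mice (logFC -2.84, adjusted p = 2.85e-11) and 55.8 ± 5.67 CPM and 10.9 ± 2.92 CPM in obese mice (logFC -2.41, adjusted p = 1.82e-10).

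**Figure D4:**
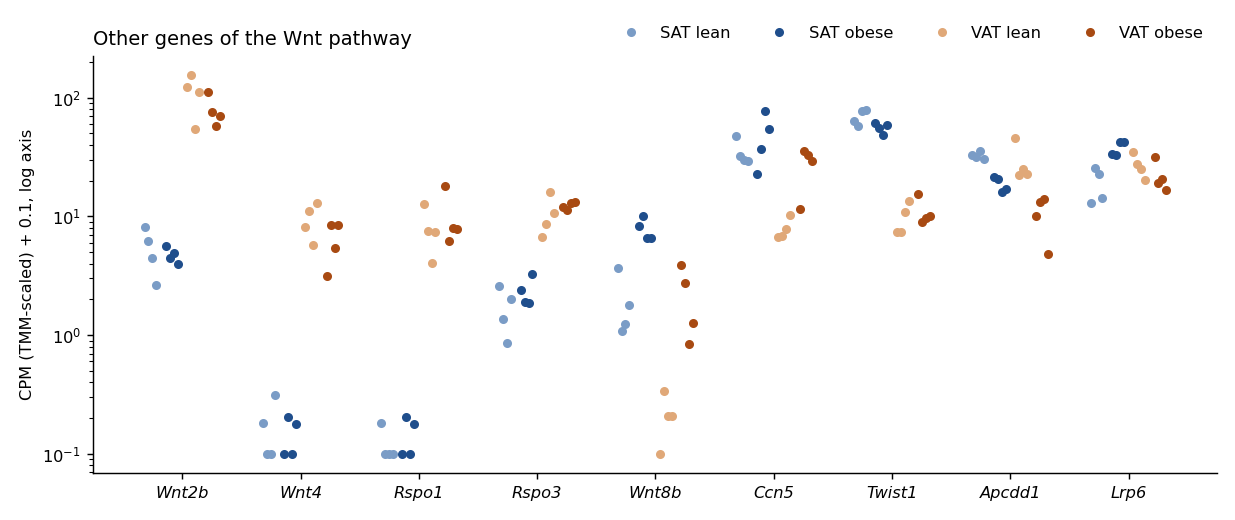
TMM-scaled CPM plus 0.1 (log y axis) of 9 other Wnt pathway genes, with 1 point per library, coloured by tissue and diet. Wnt2b, Wnt4, Rspo1 and Rspo3 are higher in all VAT libraries than in all SAT libraries, Twist1 is lower in all VAT libraries, and Wnt8b is higher in obese than in lean mice within each tissue.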

How the data were processed

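RNA of SAT and VAT from 4 lean and 4 obese mice was analysed as 16 libraries, 1 per tissue and mouse. The authors trimmed paired-end reads, aligned them with HISAT2 to GRCm39 and its RefSeq annotation and counted them with HTSeq (versions 2.2.0 and 0.13.5 per the submitters' processing notes). The deposited table has 16 columns of raw counts and 16 of CPM, which the authors scaled by the column total (checked to within 4.9e-10), for 130343 entries, RefSeq transcripts apart from 13 mitochondrial genes. How shared reads and strand were treated is not given in the sources used here.

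Counts were summed per gene symbol (82.0% of entries and 98.9% of counts had one), and other entries were kept singly. Features with CPM above 1 in at least 3 of 16 libraries (12185) were fitted in edgeR 4.0.16 (R 4.3.3) with TMM factors and the quasi-likelihood F-test (legacy=TRUE), with Benjamini-Hochberg adjustment. Diet responses came from a fit of 4 group means. Comparisons of tissues and the difference of the diet response had the mouse as a block, since the study took both tissues from each mouse. As a check, deviations from the group means correlated at -0.001 to 0.175 (median 0.076) in the 8 pairs from 1 mouse and at -0.155 to 0.117 (median -0.037) in 24 other pairs. Intervals (95%) span 1.96 standard errors each way. Any 2 libraries of a group differed by at least 8.4 in chi-square per degree of freedom, so none are copies.

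The genes named are the 10 members, the 4 called genes of the other Wnt lists with the smallest p in each direction of each comparison, all called secreted inhibitors, the 3 genes most like each member (Pearson r of log2 CPM, prior count 2) and the leading cell markers, with 12 marker lists. Adipoq, Msln, Wnt2, Dcn, Dpp4, Pi16, Zg16, Marveld1's position and Scd1 were singled out after their values were seen. The members and all gene lists were chosen with earlier results of these data known. The test was run on simulated data beforehand. Alternatives were entries without summing, RLE size factors, no filter, legacy=FALSE, DESeq2 1.42.0, limma 3.58.1 voom with a random effect for the mouse, a fit of 1 tissue, the replicate number as a block, no block, a limit of 1.5 on the logFC, each mouse left out and, chosen after seeing the data, the 2 shallow VAT libraries left out. Python 3.11.15 made the tables and figures.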

Additional observations from a re-analysis of the deposited data

Results flagged for a closer look

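Sfrp4 in SAT of obese mouse 3 was at 33.5 CPM, against 13.3 to 16 CPM in the other 3 obese mice, and its gap to the nearest of them was 0.864 of the group's range. Wnt5a in VAT of lean mouse 2 was at 9.47 CPM, against 12.7 to 13.3 CPM in the other 3 lean mice, with a gap of 0.847 of the range. Both were singled out because 1 sample lay far from the others of its group by Dixon's test. Of 24 groups of 4 libraries examined 2 stood out in this way, where chance gives about 1 in 20. Sfrp5 responded differently to the diet in the tissues, by 1.03 on the log2 scale (edgeR, adjusted p = 0.0024).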

How the results depend on the processing

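No call of a member reversed, but 3 uncalled estimates changed sign under some alternatives. Sfrp2 in VAT (-0.044) was 0.062 without lean mouse 1, 0.054 without lean mouse 4 and 0.031 without obese mouse 2 (range with 1 mouse left out -0.182 to 0.062), 0.044 with limma voom and 0.071 without the 2 shallow VAT libraries. Sfrp4 between tissues of obese mice (0.033) was -0.01 with no replicate block and -0.196 without obese mouse 4 (range -0.196 to 0.259), and Axin2 between tissues of lean mice (0.325) was -0.005 without lean mouse 4 (range -0.005 to 0.825). Wif1 in VAT, Sfrp5 and Wif1 between the tissues of both diets, Sfrp2 between the tissues of obese mice and the Sfrp5 difference of the diet response stayed called under every alternative at any size. The number of members called in SAT was 2 and ranged from 1 to 2 when 1 mouse was left out, in VAT it was 1 (1 to 2), and for the difference of the diet response it was 1 (1 to 2). It was 3 in SAT with no filter and with limma voom (Sfrp4 being the third), 2 in VAT with limma voom (Wnt5a), and 2 for the difference with no filter, with legacy=FALSE, with DESeq2 and without the 2 shallow VAT libraries (Wnt5a being the second). With the logFC limit of 1.5 it was 0 in SAT, 0 between tissues of obese mice and 0 for the difference. The cause of these shifts was not tested.

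Lean and obese mice share replicate numbers, and the sources do not say what, if anything, a number marks. Deviations of same-numbered libraries of the 2 diets correlated at 0.172, 0.094, 0.155 and 0.083 in VAT and at 0.022, -0.093, 0.052 and -0.022 in SAT, against -0.148 to 0.119 for other pairs, and not every library correlated best with its own number. Both VAT libraries numbered 1 are the shallow ones. With the number as a replicate block, 2 members were called in SAT and 1 in VAT, as without it, and in the fit of 1 tissue calls over all features numbered 1212 with it and 1528 without it (SAT), or 1786 with it and 1207 without it (VAT). Without the mouse as a block, 2 in place of 3 members were called between tissues of lean mice (Wnt5a was lost), and no other call of a member changed. With CPM as deposited, 3 levels moved by more than 1 SD: Sfrp2 in VAT of obese mice was 51.7, Sfrp5 in SAT of obese mice 310 and Wnt5a in SAT of obese mice 8.56.

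Over all features, calls numbered 1414 in SAT (926 without lean mouse 2 and 316 beyond the limit of 1.5), 1482 in VAT (847 without obese mouse 4, 392 beyond the limit), 1937 between tissues of lean mice (1276 without lean mouse 3, 675 beyond the limit) and 3820 in obese mice (2490 without obese mouse 4, 1144 beyond the limit). The difference gave 301, with 453 by DESeq2, 139 without the block, 173, 147 and 177 without lean mouse 2, 3 or 4, 135 without obese mouse 4 and 80 beyond the limit. Values of Wif1 in VAT of lean mice and of Axin2 rest on few counts, and 1 count stood for up to 0.796 CPM. P-values rest on 4 mice per diet.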
